A study of Mus musculus with 6 samples.

Results

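Protein tyrosine phosphatases are the enzymes that remove phosphate from tyrosine residues, and they oppose the tyrosine kinases that carry signals from the T cell receptor, cytokine receptors and integrins. Receptor-type members (Ptpr genes) cross the membrane, and the non-receptor members (Ptpn genes) are mostly cytoplasmic. In T cells, CD45, encoded by Ptprc, keeps Src family kinases ready for activation, whereas SHP-1, encoded by Ptpn6, is recruited by inhibitory receptors whose tails carry immunoreceptor tyrosine-based inhibitory motifs (ITIMs). The genes described here were those whose symbol is Ptpn with a number, Ptpr with a letter, or Ptprcap, the gene of a CD45-associated protein that is itself no phosphatase. Of the 17097 genes with a probe set that names them alone, 34 met this rule, and each was read from the probe set with the highest mean over all arrays.

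The study profiled 2 fractions of blood T cells from 3 female C57BL/6 mice, labelled A, C and D, aged 6 to 8 weeks. Per the labels, all had received 3 mg of the progestin Depo-Provera 5 days before blood was taken, an interval that the study's methods give differently, and no group is without it. T cells that stained for CD3, lacked CD62L and were high for CD44, an effector or memory phenotype, were split by the sorter on CD11c staining (CD11c+ and CD11c-), with 300 cells per sample. RNA was amplified and hybridised to 1 Affymetrix mouse array per sample, so that each mouse gave 1 array of each fraction and the 6 arrays form 3 pairs. No group differs in genotype or in treatment, and the fractions differ only in the sort. With 3 mice, p-values measure the spread of the paired differences over these animals, moderated towards a variance estimated from all probe sets.

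Values are log2 RMA signals (background-corrected, quantile-normalised and summarised per probe set by the authors). The array medians lay between 4.40 and 4.54. Differences are CD11c+ minus CD11c- within the mouse, tested in limma in a fit blocked on the mouse, and a gene passed at a Benjamini-Hochberg adjusted p under 0.05 over all 45141 probe sets. A mean was counted as above background when it exceeded 5.70, a level set from 41 genes that blood cells are not known to use. Genes were not ranked by signal, because probe sets differ in how strongly they bind. The choice of probe set, the background level and sums over markers do set different probe sets side by side, and are rough for that reason.

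The sort was read on its own antigens. Itgax, the gene of CD11c, read 5.80, 3.88 and 4.12 in the CD11c- cells of mice A, C and D, and 8.93, 9.06 and 8.93 in their CD11c+ cells. Cd3e, a chain of the T cell receptor complex, read 11.06, 11.12 and 11.13 in CD11c- and 10.56, 10.67 and 10.60 in CD11c+ cells. The CD11c+ fraction thus carried the mRNA of both sorting antigens. Markers of other cells also differed between the fractions, where 1.40% of all genes were called higher and 0.222% lower. Of 16 measured monocyte and macrophage markers, 8 were called higher in CD11c+ cells. The summed unlogged signal of the 16 ran from 7295 to 9199 in CD11c+ against 2120 to 2589 in CD11c- arrays. Only 5 of them had a CD11c- mean above background: Ms4a6c (9.70), Ctss (8.66), Ccr2 (8.44), Lgals3 (8.34) and Cx3cr1 (6.63). The others, among them Csf1r, Lyz2, Itgam and Fcgr3, did not, and Ms4a6c had a lower mean in CD11c+ cells (8.68). For basophils and mast cells 9 of 13 were called higher (6090 to 8874 against 222 to 239), for dendritic cells 6 of 11 (9595 to 12028 against 461 to 519) and for NK cells 4 of 11 with 1 lower (8839 to 9934 against 3129 to 3217). The dendritic cell sum includes H2-Ab1, Cd74 and H2-Aa, with CD11c+ means of 11.92, 11.63 and 11.07. Zbtb46 and Xcr1 of the same list were not above background in either fraction, and Xcr1 was lower in each mouse (-0.26). For B cells 2 of 10 were called higher (668 to 1508 against 635 to 1420, overlapping), for neutrophils 1 of 11 (404 to 444 against 166 to 218) and for platelets and red cells 1 of 8 (844 to 1742 against 306 to 3845, overlapping). Of the 13 T cell markers 2 were called lower and 0 higher (7643 to 9363 against 13994 to 15004), although 11 were above background in CD11c+ cells. In bulk samples, fewer cells of a type and less RNA per cell cannot be told apart.

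Only 2 of the 34 genes passed, Ptpro and Ptprj, and both were higher in CD11c+ cells, while 0 passed as lower. Over all genes, 240 passed as higher, or 1.40%, and 38 as lower, or 0.222%. With mouse A left out 0 of the 34 passed, nor did any other probe set, and without mouse C only Ptpro did. At an unadjusted p under 0.05, 6 of the 34 were higher and 5 lower in limma, where 7.38% of all genes were higher and 7.44% lower. The median log2 fold change of the 34 genes was -0.10 (quartiles -0.31 and 0.09), beside -0.09 (quartiles -0.23 and 0.08) over all genes, and in the separate mice it was -0.12, -0.04 and -0.05. The groups did not overlap for 10 of the 34. For 5 of these every CD11c+ array lay above every CD11c- array (Ptpn6, Ptpre, Ptprj, Ptpro and Ptprs), and for 5 below (Ptpn1, Ptpn13, Ptpn22, Ptprd and Ptpru). Over all genes such separation was seen upward in 7.48% and downward in 12.5%. Of the 34 genes, 18 were above background in at least 1 fraction, and the other 16 in neither. The median of these 18 was -0.29 (quartiles -0.39 and 0.52). Over the 7048 genes above background in a fraction it was -0.08 (quartiles -0.33 and 0.26).

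**Figure D1:**
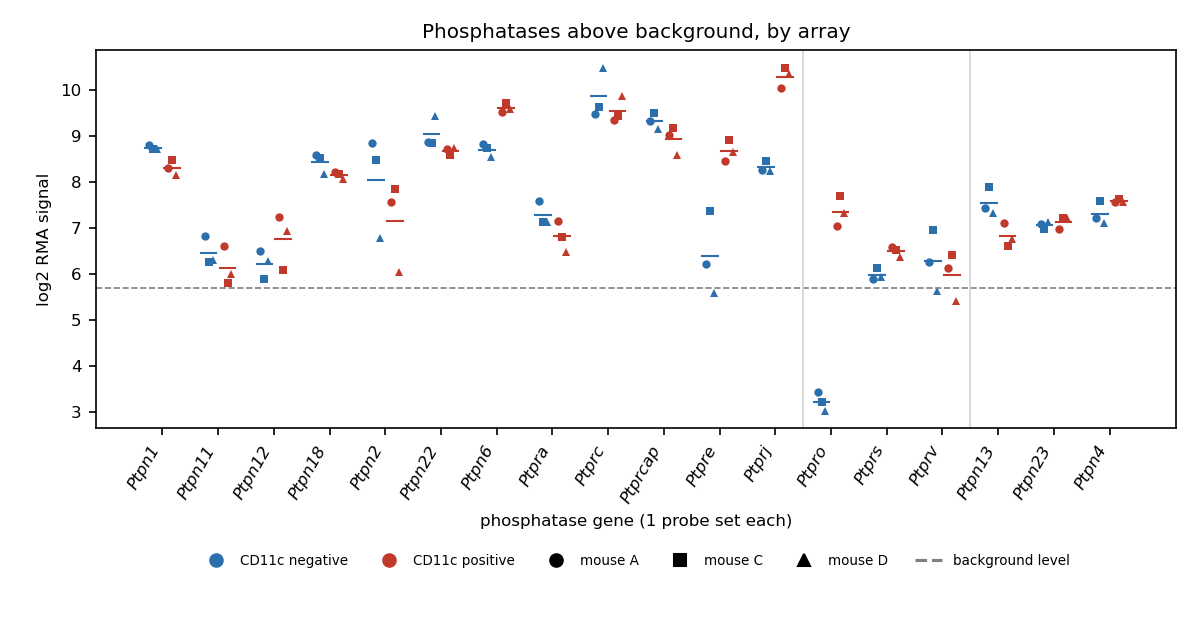
Log2 RMA signal (vertical axis) on each of the 6 arrays for the 18 phosphatase genes above background (horizontal axis), with colour for the fraction, marker shape for the mouse, short bars for the mean of 3 mice, a dashed line at 5.70, under which a mean was not above background, and grey lines between role groups. Ptpro lies below the dashed line in all 3 CD11c- arrays and between 7.05 and 7.69 in CD11c+ arrays.

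Ptpro encodes a receptor-type phosphatase known from kidney podocytes, and also from macrophages and osteoclasts. Its signal was 3.44, 3.23 and 3.02 in the CD11c- cells of mice A, C and D, and 7.05, 7.69 and 7.31 in their CD11c+ cells. The 3 CD11c- arrays were all under background, and the CD11c+ arrays were all well above it. The means were 3.23 ± 0.21 and 7.35 ± 0.32 (SD, n = 3 mice), which differ by 4.12 on the log2 scale (SE 0.215, 95% interval 3.55 to 4.70, limma adjusted p = 0.00869). Because the CD11c- mean was not above background, the difference is given as at least 3.14-fold. A second probe set for Ptpro read 3.50, 3.15 and 3.55 against 6.60, 6.04 and 5.99, at least 1.42-fold higher (fitted log2 fold change 2.81, limma adjusted p = 0.0146). Both Ptpro probe sets were under background in CD11c- cells, so their fitted log2 fold changes are not exact. Without mouse A the difference was 4.38 and did not pass (limma adjusted p = 0.0848).

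Ptprj encodes CD148 (DEP-1), a receptor-type phosphatase of blood cells that acts on Src family kinases. Its signal was 8.26, 8.46 and 8.23 in CD11c- cells and 10.04, 10.46 and 10.33 in CD11c+ cells of the same mice. The gene was well above background in both fractions, and the lowest CD11c+ array exceeded the highest CD11c- array. The means were 8.32 ± 0.12 and 10.28 ± 0.22 (SD, n = 3 mice), a 3.89-fold difference (log2 1.96, SE 0.139, 95% interval 1.59 to 2.33, limma adjusted p = 0.0178). Ptprj did not pass without mouse A (2.05, limma adjusted p = 0.130) or without mouse C (1.94, limma adjusted p = 0.0942). Of its other probe sets, one read 6.13, 6.63 and 7.01 against 8.34, 8.60 and 8.63, a log2 fold change of 1.94 (limma adjusted p = 0.0283). The remaining one, whose means were not above background, had 1.05 (limma adjusted p = 0.067).

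The sequences around the starts of these transcripts are shown because these were the phosphatases that passed. Each window runs from 250 bases before to 50 bases after a RefSeq transcript start in GRCm38.p6, 5′ to 3′ on the strand of the gene. Capitals mark GAGGAA or, on the other strand, TTCCTC, the core bound by PU.1, a transcription factor of myeloid and B cells. The Ptpro window is chr6:137252049-137252348 on the plus strand, and the Ptprj windows, for alternative starts, are chr2:90479125-90479424 and chr2:90580546-90580845 on the minus strand.
Ptpro: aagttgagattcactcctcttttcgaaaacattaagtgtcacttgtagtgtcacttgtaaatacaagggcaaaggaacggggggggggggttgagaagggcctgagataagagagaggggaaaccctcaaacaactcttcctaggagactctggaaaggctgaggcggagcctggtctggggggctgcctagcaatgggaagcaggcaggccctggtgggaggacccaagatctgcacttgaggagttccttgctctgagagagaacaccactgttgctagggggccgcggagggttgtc
Ptprj, start 1: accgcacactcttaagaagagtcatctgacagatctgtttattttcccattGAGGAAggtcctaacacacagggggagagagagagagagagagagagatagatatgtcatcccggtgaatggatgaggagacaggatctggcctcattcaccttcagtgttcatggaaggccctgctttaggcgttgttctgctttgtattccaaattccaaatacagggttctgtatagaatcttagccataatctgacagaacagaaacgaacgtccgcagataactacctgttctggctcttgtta
Ptprj, start 2: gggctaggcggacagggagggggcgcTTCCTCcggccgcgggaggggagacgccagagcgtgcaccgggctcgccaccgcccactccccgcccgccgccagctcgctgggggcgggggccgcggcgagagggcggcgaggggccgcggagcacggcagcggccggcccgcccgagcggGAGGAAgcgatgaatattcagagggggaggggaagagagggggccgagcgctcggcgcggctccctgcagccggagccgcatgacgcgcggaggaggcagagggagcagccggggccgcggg

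The Ptpro window had a GC content of 54.7% and 5 CpG dinucleotides, and held none of the 4 motifs searched on both strands (GAGGAA, the RUNX core TGTGGT, the C/EBP core TTGCNNAA and TATAAA). The Ptprj windows had GC contents of 45.0% and 79.3%, with 6 and 42 CpG dinucleotides. Counted from the transcript start, GAGGAA lay at -199 in the first Ptprj window, and the core lay at -224 and -72 in the other. Over the 32851 mouse promoter windows of this length, 28.3% held the PU.1 core, and 19 of the 41 windows of the 28 phosphatase genes with a window held it, or 46.3%. The other motifs were rarer in phosphatase windows than over all windows (the RUNX core in 12.2% against 16.8%, the C/EBP core in 4.9% against 10.8% and TATAAA in 7.3% against 13.6%). Phosphatase windows were also richer in GC (median 63.0% against 52.7% over all windows). A match of letters is a description of the window and shows no binding.

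The other measured genes that act on antigen receptor signalling or belong to blood cells formed the largest role group above background. Of the 13 genes listed, 12 had a probe set of their own, all 12 were above background in both fractions, and 1 (Ptprj) passed. Their median log2 fold change was -0.32, and 4 were higher and 8 lower in 3 of 3 mice. Over all genes, 12.6% were higher and 26.5% lower in 3 of 3 mice. Among the 7048 genes above background in a fraction, 1474 were higher and 1894 lower in 3 of 3 mice, with a median of -0.08. In both sets more genes lay on the lower side than on the higher.

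Ptpre has a receptor and a cytoplasmic form and is known in macrophages and osteoclasts. Its signal was 6.22, 7.36 and 5.59 in CD11c- cells and 8.45, 8.90 and 8.64 in CD11c+ cells. All CD11c+ arrays were higher than all CD11c- arrays, but the CD11c- arrays were widely spread (SD 0.90). The log2 fold change was 2.28 (95% interval 1.43 to 3.13), and the gene did not pass (limma adjusted p = 0.074). A second probe set read 6.28, 6.23 and 6.11 against 7.35, 8.09 and 8.18, with a log2 fold change of 1.66 that did not pass either (limma adjusted p = 0.0779).

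Ptpn6, the gene of SHP-1, read 8.83, 8.72 and 8.54 in CD11c- cells and 9.51, 9.72 and 9.57 in CD11c+ cells. The arrays did not overlap, and the log2 fold change was 0.90 (95% interval 0.51 to 1.29, limma adjusted p = 0.0955), which did not pass. Ptpn6 and Ptpre passed in some other fits, such as those with the mouse as a random block (limma adjusted p = 0.0213 and 0.0469). Ptpn11, the gene of SHP-2, which mostly promotes growth factor signalling, read 6.83, 6.25 and 6.29 in CD11c- cells and 6.61, 5.79 and 5.99 in CD11c+ cells. Its difference was -0.33 (95% interval -0.68 to 0.03, limma adjusted p = 0.409), with overlapping groups.

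Markers of several other cell types were higher in the same arrays as these phosphatases, where 1.40% of all genes passed as higher. Of the monocyte and macrophage markers, 8 of 16 passed as higher, as did 9 of 13 of basophils and mast cells. So did 6 of 11 of dendritic cells, 4 of 11 of NK cells and 2 of 10 of B cells. The NK cell marker Klrb1c passed as lower (-1.30, limma adjusted p = 0.042), and Ncr1 of that list was not above background in either fraction. Ms4a6c of the monocyte and macrophage list (-1.02) and Blk of the B cell list (-1.28) were lower in 3 of 3 mice without passing. Csf1r, the receptor for macrophage colony-stimulating factor, read 5.64, 5.20 and 5.32 in CD11c- cells and 8.24, 8.13 and 8.05 in CD11c+ cells (limma adjusted p = 0.00829). Of the 16 monocyte and macrophage markers, 5 were above background in CD11c- cells (Ms4a6c, Ctss, Ccr2, Lgals3 and Cx3cr1). The others, among them Csf1r, Lyz2 and Cd68, were not. Ptpro was not above background in CD11c- cells, and Ptprj was. The part of any of these cells in the differences of Ptpro, Ptprj, Ptpre and Ptpn6 was not tested.

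Ptprc, the gene of CD45, read 9.46, 9.61 and 10.48 in CD11c- cells and 9.34, 9.43 and 9.86 in CD11c+ cells. The value was lower in CD11c+ cells in each mouse, yet the groups overlapped, and the difference of -0.31 (95% interval -0.74 to 0.12) did not pass (limma adjusted p = 0.528). Ptprcap read 9.32, 9.49 and 9.15 against 9.01, 9.18 and 8.58, a difference of -0.40 (limma adjusted p = 0.333).

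Ptpn22 encodes a phosphatase that works with the kinase Csk to restrain Lck and Zap70. It read 8.87, 8.83 and 9.43 in CD11c- cells and 8.72, 8.58 and 8.73 in CD11c+ cells, a difference of -0.37 (95% interval -0.82 to 0.08, limma adjusted p = 0.462). The groups did not overlap, but by a small margin.

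Ptpn2 (TC-PTP), which acts on JAK kinases and STATs, had the most negative difference of the 34. It read 8.84, 8.48 and 6.77 in CD11c- cells of mice A, C and D, and 7.56, 7.85 and 6.04 in their CD11c+ cells. Both arrays of mouse D were low, so the groups overlapped although CD11c+ was lower in each mouse. The log2 fold change was -0.88 (95% interval -1.37 to -0.39, limma adjusted p = 0.148), and its 3 other probe sets, not above background, had -0.17, -0.60 and -0.11. Ptpn1 (PTP1B), which acts on the insulin and leptin receptors, read 8.79, 8.72 and 8.71 against 8.30, 8.47 and 8.14. Its arrays did not overlap, and the difference of -0.43 (95% interval -0.81 to -0.06) did not pass (limma adjusted p = 0.306). Its other probe set had -0.19 (limma adjusted p = 0.622).

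Of the remaining genes of this group, Ptpra, which activates Src and Fyn, had a difference of -0.46, and Ptpn18 one of -0.28. Ptpn12 (PTP-PEST), which acts on cytoskeletal adaptors, had 0.53. None of them passed (limma adjusted p between 0.277 and 0.494).

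**Figure D2:**
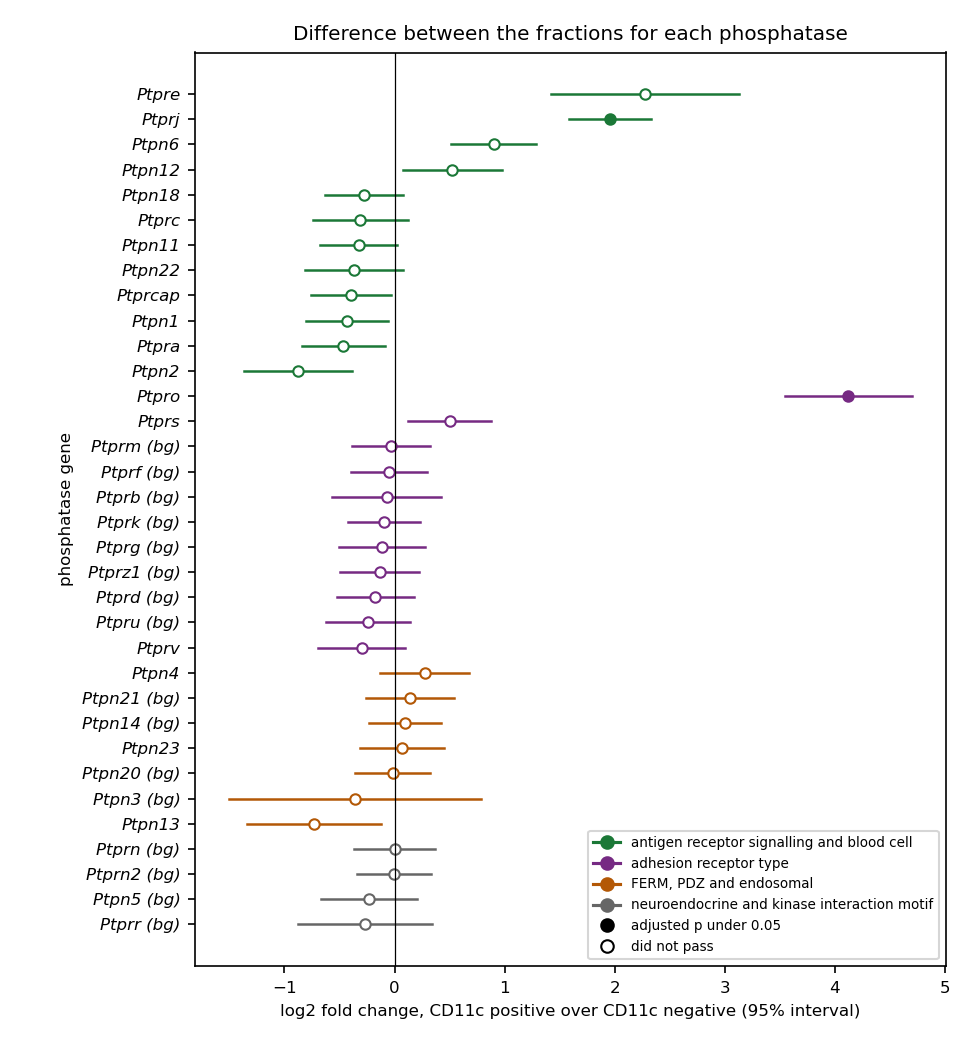
Log2 fold change of CD11c+ over CD11c- cells (horizontal axis) for each of the 34 phosphatase genes (vertical axis), with bars for the 95% interval, colour for the role and filled points for an adjusted p under 0.05; (bg) marks the 16 genes not above background in either fraction. The 2 filled points are Ptprj at 1.96 and Ptpro at 4.12.

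Adhesion receptor types carry fibronectin or immunoglobulin domains outside the cell, and many are best known from epithelium and neurons. Of 14 listed, 11 were measured, and 3 were above background in a fraction (Ptpro, Ptprs and Ptprv). Ptpro alone passed, and the median of the 11 was -0.10. Ptprs, of the LAR family, read 5.89, 6.13 and 5.94 in CD11c- and 6.59, 6.51 and 6.36 in CD11c+ cells, a difference of 0.50 (95% interval 0.13 to 0.87, limma adjusted p = 0.245). Its arrays did not overlap, but its other probe sets had 0.55 and -0.36, and neither passed. Ptprv had -0.30 (limma adjusted p = 0.509) and was above background on 4 of 6 arrays. The homophilic adhesion receptors Ptprk, Ptprm and Ptpru, with Ptprb, Ptprd, Ptprf, Ptprg and Ptprz1, were not above background in either fraction.

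Among phosphatases with FERM or PDZ domains or a role in endosomal sorting, 7 of 8 were measured, 0 passed and the median was 0.07. Ptpn13, a large scaffold with FERM and PDZ domains, read 7.44, 7.88 and 7.32 in CD11c- and 7.11, 6.60 and 6.75 in CD11c+ cells, a difference of -0.73 (95% interval -1.34 to -0.12, limma adjusted p = 0.291). The groups did not overlap, and mouse C had the widest gap. Ptpn4 and Ptpn23, the latter an endosomal sorting protein, had 0.27 and 0.07. Ptpn3, Ptpn14, Ptpn20 and Ptpn21 were not above background. The 4 genes with a neuroendocrine role or a kinase interaction motif (Ptpn5, Ptprn, Ptprn2 and Ptprr) were not above background in either fraction, with a median of -0.12. Over all 16 genes not above background the largest distance from 0 was 0.36, and such values say nothing about transcript change.

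**Figure D3:**
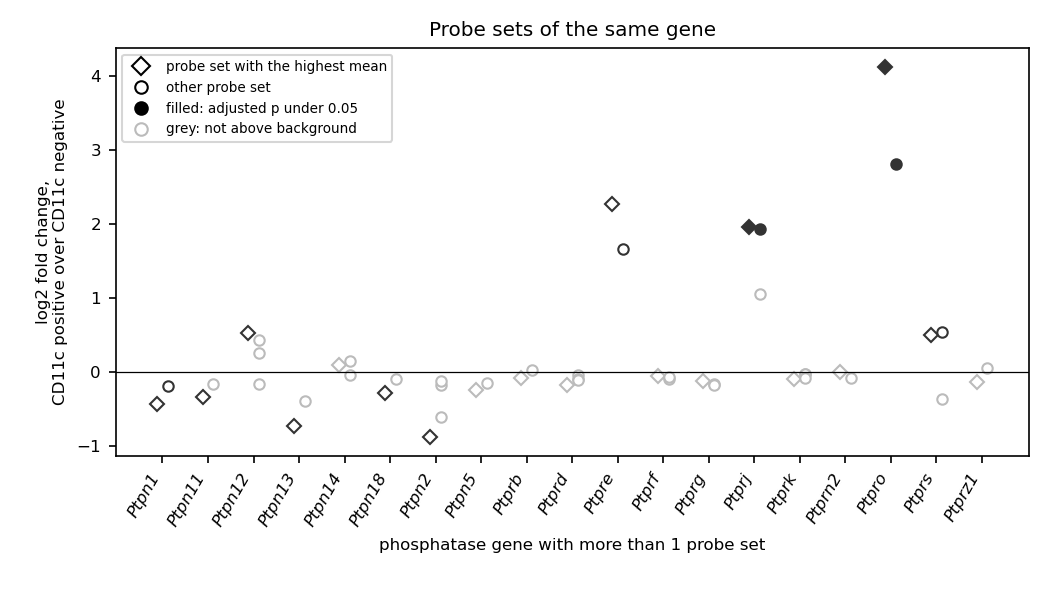
Log2 fold change of CD11c+ over CD11c- cells (vertical axis) for every probe set of the 19 phosphatase genes that have more than 1 (horizontal axis), with diamonds for the probe set with the highest mean, circles for the others, filled symbols for an adjusted p under 0.05 and grey for means not above background. Both probe sets of Ptpro are filled, at 4.12 and 2.81, as are 2 of Ptprj at 1.96 and 1.94.

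The 34 genes had 66 probe sets, 4 of which passed as higher (those of Ptpro and Ptprj above) and 0 as lower. Of the 32 probe sets other than the ones with the highest mean, 27 were not above background. The chosen probe sets carried no suffix that marks cross-hybridisation. Of the 39 phosphatases listed by role, 5 (Ptpn7, Ptpn9, Ptprt, Ptprh and Ptprq) had no probe set naming them alone and were not analysed here.

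The partners of these enzymes were read from lists of the same pathways. Of 39 kinases and adaptors that the phosphatases act on, 33 were measured and 3 passed, all higher, with a median of -0.10. Over all genes, 1.40% passed as higher and 0.222% as lower. Fgr, a Src family kinase of myeloid cells, read 4.27, 5.25 and 4.31 against 8.55, 8.70 and 8.82, at least 7.91-fold higher (limma adjusted p = 0.0126). Syk, the kinase that relays Fc and B cell receptor signals, read 5.13, 5.67 and 4.72 against 8.46, 9.37 and 9.62, at least 10.9-fold higher (limma adjusted p = 0.0271). Gab2, an adaptor that binds SHP-2, read 4.61, 4.90 and 4.84 against 8.21, 8.69 and 9.01, at least 7.64-fold higher (limma adjusted p = 0.00626). All 3 were under background in the CD11c- mean. The T cell kinases Fyn (-0.14) and Zap70 (-0.66) and the Csk-binding adaptor Pag1 (0.73) did not pass (limma adjusted p between 0.276 and 0.733), and Lck and Csk had no probe set of their own. With mouse A left out, 0 of the 33 passed, and with mouse C left out, 2 did.

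Of 37 genes listed as receptors with inhibitory motifs that bind SHP-1 or SHP-2, 30 were measured, and their median was 0.82. The motif was not checked in each gene, so the name of the list need not hold for every member. Of the 30, 4 passed as higher and 2 as lower, beside 1.40% and 0.222% of all genes. The higher ones are receptors of myeloid cells. Lilrb4a read 6.32, 5.41 and 6.58 against 10.75, 11.05 and 10.99 (log2 fold change 4.83, limma adjusted p = 0.0132). Sirpa, which binds CD47, was at least 14.6-fold higher (limma adjusted p = 0.0118), Pilra at least 2.96-fold (limma adjusted p = 0.0133) and Pirb at least 2.70-fold (limma adjusted p = 0.0444). The lower ones are inhibitory receptors found on T cells: Ctla4, at least 6.89-fold lower (limma adjusted p = 0.0226), and Cd5, with a log2 fold change of -1.62 (limma adjusted p = 0.0416). Pirb and Cd5 lost their calls under cyclic loess (limma adjusted p = 0.0592 and 0.0590), with arrays centred on their median (0.0510 and 0.0732) and with any mouse left out. With mouse A left out, 0 of the 30 passed. With mouse C left out 3 passed as higher and 0 as lower, and with mouse D left out 4 and 1. As with the phosphatases, the part of the other cell types in these values was not tested.

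Of 56 other tyrosine and dual-specificity phosphatases, among them the MAP kinase phosphatases (Dusp genes) and myotubularins (Mtmr genes), 48 were measured and 0 passed in limma (7 higher and 8 lower at an unadjusted p under 0.05, beside 7.38% and 7.44% of all genes). Their median was -0.05, with a range from -1.18 (Mtmr2) to 1.51 (Dusp3).

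**Figure D4:**
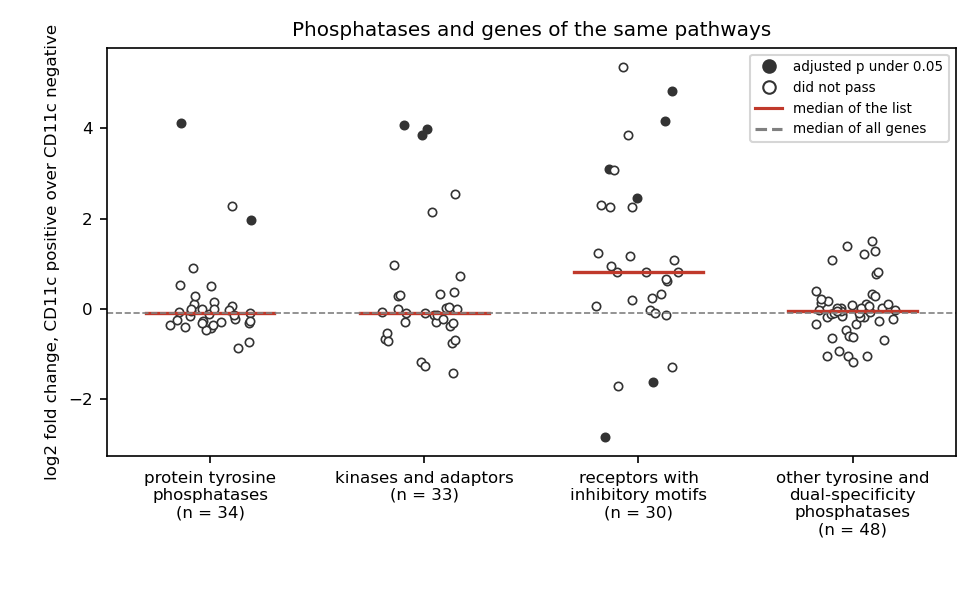
Log2 fold change of CD11c+ over CD11c- cells (vertical axis) for the genes of 4 lists (horizontal axis, n = genes measured), with filled points for an adjusted p under 0.05, red bars for the list median and a dashed line at the median of all genes, -0.09. The medians are -0.10 for the phosphatases and for the kinases and adaptors, 0.82 for the receptors with inhibitory motifs and -0.05 for the other phosphatases.

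RMA scales all arrays to the same distribution, and directions of small differences depend on that. Centring the arrays on the CD3 chains instead adds 0.74 to the log2 fold change of every gene alike, and the median of all genes moved from -0.09 to 0.65. Then 16 of the 34 phosphatases passed as higher, as did 50.1% of all genes, so this count is not particular to the phosphatases. Any difference between -0.74 and 0 turns positive by that construction, among them those of Ptprc, Ptprcap, Ptpn1, Ptpn11, Ptpn18, Ptpn22 and Ptpra (0.27 to 0.46, below the shifted median). Ptpro, Ptprj, Ptpre and Ptpn6 kept their direction under every setting run, but most settings could not have changed it. Their differences were positive in each mouse, so leaving out a mouse cannot turn the sign. Changes of block, variance prior or threshold leave the fold change as it was, and centring on the CD3 chains raises it.

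**Figure D5:**
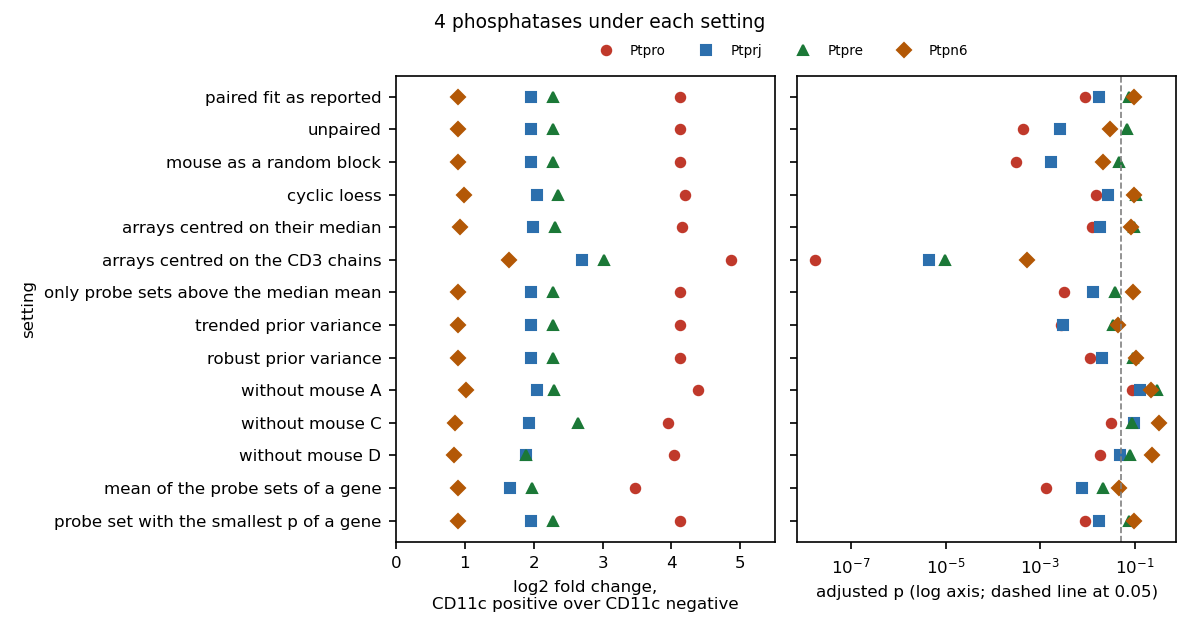
Log2 fold change of CD11c+ over CD11c- cells (left, horizontal axis) and limma adjusted p on a log axis (right, dashed line at 0.05) of Ptpro, Ptprj, Ptpre and Ptpn6 under each setting (vertical axis). All fold changes are above 0; the adjusted p of Ptpro crosses the line without mouse A, that of Ptprj without mouse A and without mouse C, and those of Ptpre and Ptpn6 lie on either side of it.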

How the data were processed

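Of each of the 6 samples, 300 sorted cells were lysed, their RNA was amplified as whole transcriptome cDNA and hybridised to 1 Affymetrix HT MG-430 PM array. The deposited values are log2 RMA signals made by the authors from images extracted with the GeneAtlas software, and the labels also name limma; their versions were not stated in the sources read here. From these values the paired difference between fractions was fitted in limma 3.58.1 (R 4.3.3) on all 45141 probe sets, with the mouse as a block and 2 residual degrees of freedom before moderation. The fit was tested on simulated data.

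Probe sets were named through the platform annotation, in which 28898 name 1 gene, 551 several and 15692 none, and 1 probe set per gene, the one with the highest mean, was kept. The background level, 5.70, is the 95th percentile over 41 measured genes that mark tissues other than blood, each taken at its mean signal; 29.9% of probe sets lie above it. The number of arrays limits the precision. The pairs come from the same animals. Deviations from the group means correlated at 0.122, 0.0758 and 0.109 within a mouse, and between -0.086 and -0.0217 across mice. Each fraction was centred on its own mean, so positive values within a mouse tend to make those across mice negative. No 2 arrays held the same values.

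The members and lists were chosen with earlier results of these data known. All members could be named. Values on every array are given for those that passed, for those with an absolute log2 fold change of at least 1 in 3 of 3 mice and above background, and for the main T cell phosphatases; Ptprs and Ptpn13 were added after their values were seen. From the lists of partners, values are given for up to 6 that passed in each direction, with Fyn, Pag1 and Zap70. The alternatives were other scalings, blocks, variance priors, filters, thresholds, probe set rules and background levels, and leaving out each mouse. Promoter windows are from RefSeq, GRCm38.p6.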

Additional observations from a re-analysis of the deposited data

How the results depend on the processing

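Each count below is of genes or probe sets passing as higher, then lower. The fit as reported gave 432 and 76 probe sets, 2 and 0 phosphatases, 3 and 0 kinases and adaptors, 4 and 2 receptors with inhibitory motifs, and 0 and 0 other phosphatases. Without the block (no pairing) these were 684 and 211, 3 and 0, 4 and 0, 9 and 3, and 2 and 1. With the mouse as a random block they were 812 and 316, 4 and 0, 5 and 1, 10 and 4, and 2 and 1. Trended prior variance gave 684 and 207, 4 and 0, 5 and 1, 10 and 3, and 1 and 0. An adjusted p under 0.1 gave 845 and 380, 4 and 0, 6 and 1, 10 and 3, and 2 and 1, and one under 0.01 gave 123 and 2, 1 and 0, 1 and 0, 0 and 0, and 0 and 0. Restriction to probe sets above the median mean gave 607 and 140, 3 and 0, 5 and 0, 8 and 3, and 1 and 0, with 20 phosphatases tested and their median at -0.29. Cyclic loess gave 343 and 41, 2 and 0, 3 and 0, 3 and 1, and 0 and 0, with the phosphatase median at -0.022, and centring on the array median gave 349 and 51, with 1 receptor lower. Centring on the CD3 chains gave 22412 and 232, 16 and 0, 16 and 0, 25 and 3, and 22 and 0, with the phosphatase median at 0.64. Averaging the probe sets of each gene gave 4 and 0 phosphatases, 4 and 1 kinases, 12 and 3 receptors and 3 and 0 other phosphatases, and the probe set with the smallest p gave 2 and 0, 3 and 0, 7 and 3, and 1 and 1. The cause of these shifts was not tested.

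Leaving out 1 mouse at a time gave 0 to 348 probe sets higher and 0 to 44 lower, 0 to 2 phosphatases higher, 0 to 4 kinases higher, 0 to 4 receptors higher and 0 to 1 lower, and a phosphatase median from -0.10 to -0.043. Without mouse A nothing passed, with 1 residual degree of freedom left before moderation. Ptpre passed with the random block (limma adjusted p = 0.0469), the filter (0.0377), the trended prior (0.0339) and the mean of its probe sets (0.0208). Ptpn6 passed unpaired (0.0298), with the random block (0.0213), the trended prior (0.0434) and in the fit on means of probe sets (0.0451). Ptpn6 has 1 probe set, so its values there were those of the fit as reported, tested among genes instead of all probe sets. The number of phosphatases above background was 18 at the level used, 19 and 20 at lower levels, and 15 when it was raised by 1, a level chosen after seeing the data at which the bound for Ptpro fell from 3.14-fold to 1.57-fold.

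Centring on the CD3 chains adds 0.74 to every gene, which by construction turned the sign of Ptpn1 (0.31), Ptpn11 (0.41), Ptpn13 (0.011), Ptpn18 (0.46), Ptpn20 (0.72), Ptpn22 (0.37), Ptpn3 (0.38), Ptpn5 (0.50), Ptpra (0.27), Ptprb (0.67), Ptprc (0.43), Ptprcap (0.34), Ptprd (0.57), Ptprf (0.69), Ptprg (0.63), Ptprk (0.64), Ptprm (0.70), Ptprn2 (0.74), Ptprr (0.47), Ptpru (0.49), Ptprv (0.44), Ptprz1 (0.61), Fyn (0.60) and Zap70 (0.077). Centring on the array median turned the sign of Ptpn20 (0.012) and Ptprn2 (0.026). Cyclic loess turned the sign of Ptpn20 (0.066), Ptprb (0.011), Ptprf (0.033), Ptprm (0.048) and Ptprn2 (0.077). Leaving out 1 mouse at a time gave both signs for Ptpn20 (-0.047 to 0.026), Ptpn23 (-0.017 to 0.16), Ptpn3 (-0.83 to 0.21), Ptprb (-0.21 to 0.13), Ptprf (-0.097 to 0.00064), Ptprm (-0.093 to 0.029), Ptprn (-0.079 to 0.077) and Ptprn2 (-0.039 to 0.0202). All of these had missed the threshold as reported, and many were not above background. The depth of the arrays is not known, and signals under 5.70 give no measured level.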
